A study of Mus musculus with 8 samples.

Results

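The 10 adipocyte genes described here are *Fabp4*, *Adipoq*, *Plin1*, *Plin4*, *Cidec*, *Cidea*, *Ucp1*, *Lep*, *Lpl* and *Pparg*. They were found by symbol (FABP4, ADIPOQ, PLIN1, PLIN4, CIDEC, CIDEA, UCP1, LEP, LPL and PPARG in the capitals of the table) among the 16119 genes of a table of normalized counts, and all 10 were listed. The table covers 8 bulk mRNA libraries in 4 groups of 2. Early passage and late passage thyroid follicular cell organoids (TFCOs) came from the lines mThy14 and mThy16, and the other groups are 2 primary thyroid tissues and 2 lung tissues, the lung serving as an unrelated control. All mice were wild type and C57BL/6, females were the source of the organoids, and no library was treated. Each TFCO line was grown from the gland of a mouse in basement membrane extract, in an expansion medium that holds the cAMP activator forskolin. A line is 1 culture seen at 2 passages, and the age of the mice is not given in the sources used here. Nothing in the labels says that tissues 1 and 2 came from separate animals, so p-values measure the spread between these samples, which may be technical.

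White adipocytes store triglyceride in a single large lipid droplet and secrete hormones such as adiponectin and leptin, whereas brown adipocytes hold many small droplets and burn fat for heat through the mitochondrial uncoupling protein UCP1. Both cell types depend on the nuclear receptor PPARγ and share droplet coat proteins and the enzymes of fatty acid uptake. The thyroid lies in the neck, where fat, muscle and parathyroid glands adjoin it, and a dissected gland can carry any of them.

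Promoters of members with different patterns are shown for orientation, as the 250 bases upstream of a RefSeq start site (GRCm38.p6), written 5′ to 3′ on the strand of the gene. Capitals mark a match to a motif searched on both strands. The 4 promoters are those of the brown fat gene *Ucp1* (chr8:83290098-83290347, plus strand), the droplet gene *Cidec* (chr6:113435761-113436010, minus strand), the hormone gene *Lep* (chr6:29059971-29060220, plus strand) and the hormone gene *Adipoq* (chr16:23146286-23146535, plus strand).
Ucp1: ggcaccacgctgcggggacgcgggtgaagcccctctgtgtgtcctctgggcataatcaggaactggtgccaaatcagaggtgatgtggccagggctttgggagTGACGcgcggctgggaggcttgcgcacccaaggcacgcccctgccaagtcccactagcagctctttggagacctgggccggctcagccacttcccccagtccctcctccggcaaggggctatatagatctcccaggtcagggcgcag
Cidec: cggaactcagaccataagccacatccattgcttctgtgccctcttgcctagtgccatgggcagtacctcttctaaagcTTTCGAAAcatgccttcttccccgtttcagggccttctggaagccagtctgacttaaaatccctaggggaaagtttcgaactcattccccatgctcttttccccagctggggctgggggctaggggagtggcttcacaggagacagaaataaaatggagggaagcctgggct
Lep: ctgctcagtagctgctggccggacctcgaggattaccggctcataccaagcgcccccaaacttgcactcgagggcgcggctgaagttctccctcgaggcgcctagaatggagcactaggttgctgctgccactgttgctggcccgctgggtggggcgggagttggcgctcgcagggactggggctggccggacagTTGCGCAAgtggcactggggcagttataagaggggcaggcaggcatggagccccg
Adipoq: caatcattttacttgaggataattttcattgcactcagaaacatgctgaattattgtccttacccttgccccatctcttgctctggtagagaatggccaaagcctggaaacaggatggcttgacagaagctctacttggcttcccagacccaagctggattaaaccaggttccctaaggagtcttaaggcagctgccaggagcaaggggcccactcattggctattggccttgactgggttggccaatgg

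The capitals in *Cidec* and *Lep* match TTNCGNAA, a C/EBP-type motif, at 172 and 55 bases before the start, and 2.04% of 32851 promoters of the same length hold such a match. Those in *Ucp1* match TGACG, the core of a cAMP response element, at 147 bases before the start, which 17.8% of promoters hold. A match is a description of the letters and not a binding site. Chromosome 18, which holds *Cidea*, was left out of all promoters searched. Outside it RefSeq gave 10 promoters for 7 members. None of the 10 held the DR1 motif of PPARγ, a direct repeat with a spacer of 1 base (0.338% of all promoters), or CACGTG (6.02%). Of 3 *Pparg* promoters, 1 held TATAAA (12.4%).

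Depth ranged from 9755081 to 16904865 reads on genes per library. The values are read counts divided by 1 size factor per library, so a listed 0 allows up to 3 reads, or 2.02 to 4.22 normalized counts depending on the library. The members together made up 0.000784% to 0.00192% of all counts in the 4 TFCO libraries, 0.0729% and 0.120% in primary thyroid tissue, and 0.0645% and 0.0295% in lung tissue. The libraries fell into 2 sets. In 44 genes the count was 0 in thyroid tissue 2 and both lung tissues and at least 50 in every TFCO and in thyroid tissue 1, and in 16 genes the reverse held. No member was among either group of genes, and no label names the sets. TFCOs and lung lie in different sets, whereas thyroid tissue 1 can be compared with TFCOs, and thyroid tissue 2 with lung, within a set. In bulk RNA, fewer adipocytes and less RNA per adipocyte cannot be told apart.

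**Figure D1:**
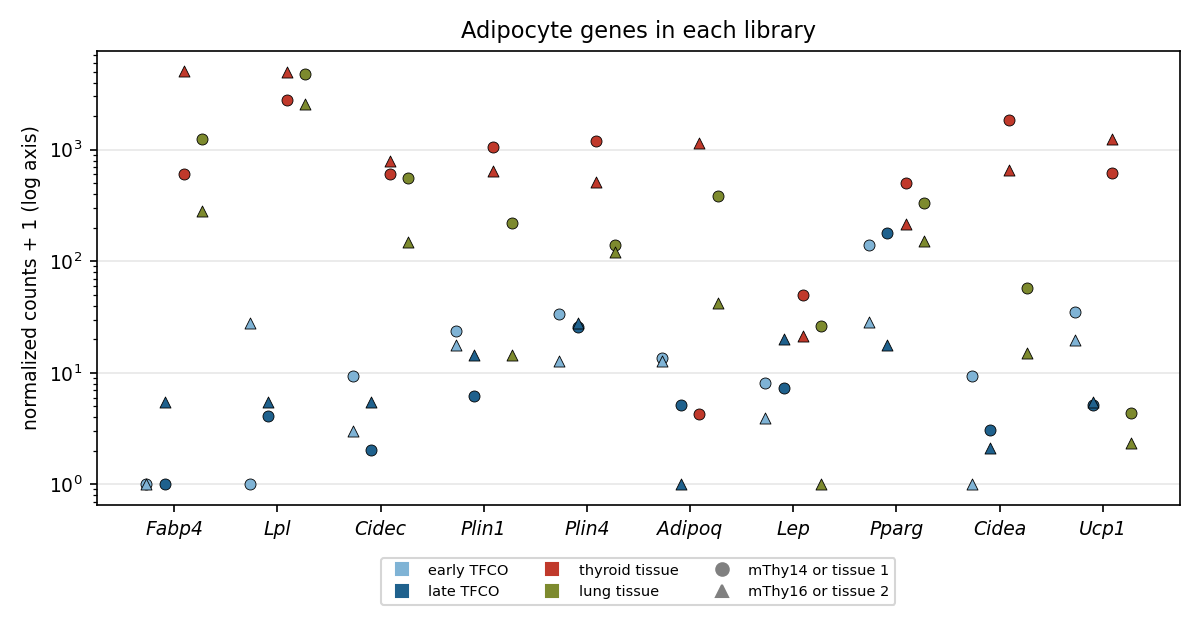
Normalized counts plus 1 of the 10 adipocyte genes (log axis) in each of the 8 libraries, with color for the group and shape for the line or tissue number. Both thyroid tissues lie above all 4 TFCO libraries in every gene except *Adipoq*, where thyroid tissue 1 is at 3.27, and *Ucp1* is the gene with both lung tissues at or under 3.35.

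*Fabp4*, *Lpl*, *Cidec*, *Plin4*, *Cidea* and *Ucp1* were higher in primary thyroid tissue than in TFCOs, where each was at or under 33.7 normalized counts, whereas the hormone genes *Adipoq* and *Lep* and the regulator *Pparg* did not pass the test. In limma fits with Benjamini-Hochberg adjustment, 6 of the 10 members exceeded the TFCOs in thyroid tissue and none was lower, whereas 3.05% of the 14703 genes tested were higher in thyroid tissue and 0.599% were lower. The median log2 difference was 6.05 over the 10 members and -0.05 over all genes tested. In 9 of 10 members both thyroid tissues exceeded all 4 TFCO libraries, as did 17.3% of all genes tested. A term for the set compares thyroid tissue 1 alone with TFCOs and assumes that this lone library varies like the other groups, and on that assumption the same 6 genes had adjusted p from 0.0301 to 0.0473. Voom weighting of the recovered reads kept 3 of the 6, namely *Plin4*, *Ucp1* and *Lpl*. It called 188 of all genes higher in thyroid tissue, against 448 in the main fit. A fit without thyroid tissue 2 kept the same members, but it has a lone thyroid library and called fewer of all genes too.

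The droplet genes *Plin4* and *Cidec* passed the test and *Plin1* fell just short. *Plin1* (chr7:79720218-79732903), which encodes the perilipin that coats adipocyte droplets and gates lipolysis, was at 22.5 and 16.8 normalized counts in early mThy14 and mThy16, 5.20 and 13.4 in late mThy14 and mThy16, 1051 and 644 in the respective thyroid tissue 1 and 2, and 220.3 and 13.5 in lung tissue 1 and 2. The thyroid tissues stood far above the TFCOs without overlap, and lung tissue 2 was within the TFCO range. The thyroid minus TFCO difference of *Plin1* was 5.89 ± 1.22 on the log2 scale (standard error, adjusted p = 0.0507). Over 19 alternatives the adjusted p ranged from 0.0103 to 0.156 and was under 0.05 in 8, among them the fits without early mThy14 (0.0472), lung tissue 1 (0.0365) and lung tissue 2 (0.0232), whereas it was 0.149 with the set term and 0.156 without thyroid tissue 2.

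*Plin4* (chr17:56100591-56109803), a perilipin of nascent droplets, was at 32.3, 11.9, 25.0 and 26.8 in the TFCOs in the same order, 1191 and 516 in primary thyroid tissue, and 139 and 119 in lung tissue. The 3 kinds of sample did not overlap, with TFCOs lowest and thyroid tissue highest. Thyroid tissue exceeded TFCOs by 5.06 ± 0.63 (adjusted p = 0.0103).

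*Cidec* (chr6:113424634-113435760), whose product fuses droplets into larger ones, was at 8.43, 1.98, 1.04 and 4.47 in the TFCOs, at most 6 reads. It was at 609 and 786 in the thyroid tissues and at 551 and 148 in the lung tissues. TFCOs were far below both tissues, and the lower thyroid value was close to the higher lung value. The thyroid minus TFCO difference was 7.36 ± 0.78 (adjusted p = 0.00688, and 0.0503 without thyroid tissue 2).

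*Fabp4* and *Lpl*, which serve fatty acid transport and uptake, had the largest thyroid minus TFCO differences of the 10 members. *Lpl* (chr8:68880491-68907448), the lipase that releases fatty acids from circulating lipoproteins and which muscle and macrophages make as well, was at 0, 26.7, 3.12 and 4.47 in the TFCOs, 2772 and 4963 in primary thyroid tissue, and 4819 and 2588 in lung tissue. TFCOs were separate from both tissues, and the thyroid and lung tissues overlapped. Thyroid tissue exceeded TFCOs by 9.53 ± 0.84 (adjusted p = 0.00425). *Fabp4* (chr3:10204088-10208576), the fatty acid carrier of adipocytes that capillary endothelium also makes, was at 0 in 3 TFCO libraries and at 4.47 in late mThy16 (4 reads). It was at 607 and 5034 in the thyroid tissues and at 1236 and 282 in the lung tissues. All 4 tissues stood above every TFCO, and the thyroid tissues differed from each other by more than the lung tissues did. The thyroid minus TFCO difference was 10.16 ± 1.17 (adjusted p = 0.00822, and 0.0503 without thyroid tissue 2).

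Both brown fat genes were expressed in both thyroid tissues. *Ucp1* (chr8:83290352-83298452) was at 33.7 and 18.8 in early mThy14 and mThy16, 4.16 and 4.47 in the late TFCOs, 614 and 1246.5 in primary thyroid tissue, and 3.35 and 1.35 in lung tissue (4 and 2 reads). Thyroid tissue stood alone at the top, and each lung tissue lay under every TFCO. The lung and late TFCO values are at most 4 reads, near the floor, so their order is not resolved. Thyroid tissue exceeded TFCOs by 6.21 ± 0.86 (adjusted p = 0.0139). *Cidea* (chr18:67343604-67367785), a droplet protein marking brown and beige fat in mice, was at 8.43, 0, 2.08 and 1.12 in the TFCOs, 1830.0 and 651 in primary thyroid tissue, and 57.0 and 14.2 in lung tissue. The 3 kinds of sample did not overlap. Its difference from TFCOs was 8.61 ± 1.10 (adjusted p = 0.0108, and 0.051 without thyroid tissue 2).

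The 2 hormone genes did not pass the test. *Adipoq* (chr16:23146536-23158028), which encodes adiponectin, was at 12.6, 11.9, 4.16 and 0 in the TFCOs, 3.27 and 1142 in primary thyroid tissue (3 and 1239 reads), and 387 and 41.1 in lung tissue. Thyroid tissue 1 lay within the TFCO range and thyroid tissue 2 was the highest library. The thyroid minus TFCO difference was 3.67 ± 2.45 (adjusted p = 0.426). Without thyroid tissue 1 it was 7.70, and without thyroid tissue 2 it was -0.36. Each of these fits rests on a lone thyroid library. *Lep* (chr6:29060220-29073877), which encodes the satiety hormone leptin, was at 7.03, 2.97, 6.25 and 19.0 in the TFCOs, 49.0 and 20.3 in primary thyroid tissue, and 25.1 and 0 in lung tissue. Its lowest thyroid value was next to its highest TFCO value, and the difference was 1.98 ± 1.57 (adjusted p = 0.492).

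*Pparg* (chr6:115360951-115490399), the master regulator of adipocyte differentiation, was the member with the highest level per kilobase of transcript in each TFCO library (7.89 to 83.8). It was at 138 and 27.7 in early mThy14 and mThy16, 178 and 16.8 in late mThy14 and mThy16, 506 and 217 in primary thyroid tissue, and 332 and 151 in lung tissue. The mThy14 libraries were above the mThy16 libraries at both passages, and late mThy14 exceeded lung tissue 2. Its thyroid minus TFCO difference was 2.48 ± 0.99 (adjusted p = 0.243).

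**Figure D2:**
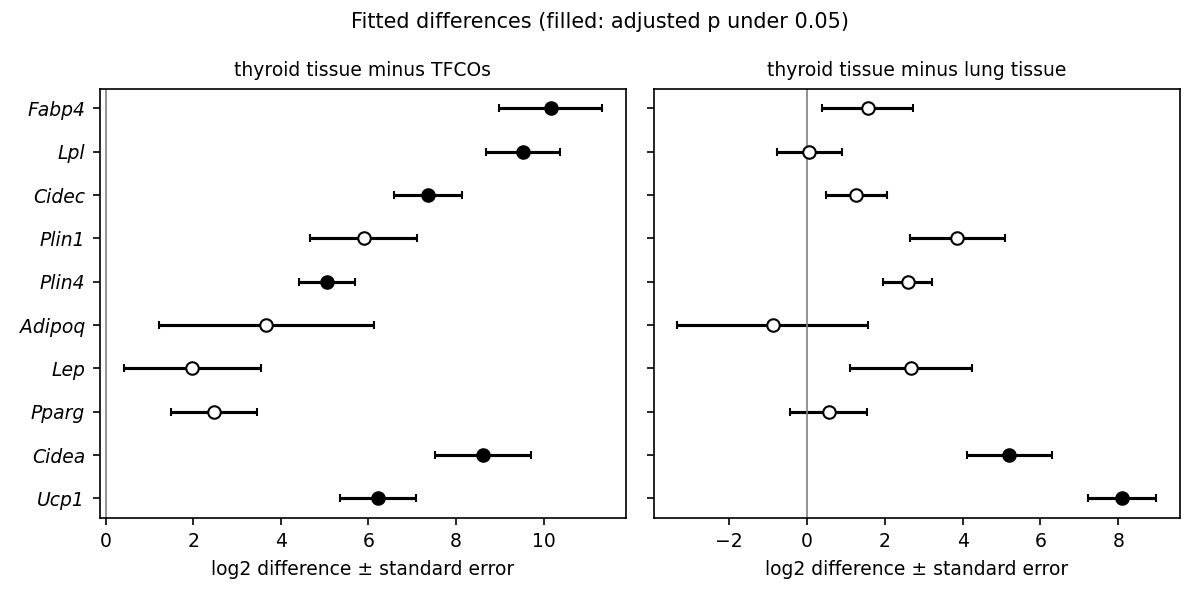
Fitted log2 differences with standard errors for the 10 members, thyroid tissue minus TFCOs (left) and thyroid tissue minus lung tissue (right), each from 2 samples per group with the passages of a line averaged. Filled points passed an adjusted p of 0.05, which were 6 genes on the left and *Cidea* and *Ucp1* on the right.

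Against lung, *Ucp1* and *Cidea* were the members that passed the test, and whether they differed more than the other members was not tested. *Ucp1* was higher in thyroid tissue by 8.10 ± 0.86 (adjusted p = 0.00551) and *Cidea* by 5.20 ± 1.10 (adjusted p = 0.04). No member was lower, and of all genes tested 2.89% were higher in thyroid tissue and 3.16% were higher in lung. A term for the set compares thyroid tissue 2 alone with lung, under the assumption on a lone library given above, and gave 8.61 for *Ucp1* (adjusted p = 0.0163) and 4.46 for *Cidea* (adjusted p = 0.108). Without lung tissue 1 or lung tissue 2 the difference was 8.54 or 7.65 for *Ucp1* and 6.17 or 4.24 for *Cidea*. Both calls were lost in these fits, which have a lone lung library and called far fewer of all genes. The call on *Cidea* was also lost without thyroid tissue 1, where the difference was 4.46 with a lone thyroid library. It was lost without late mThy14 (adjusted p = 0.0531) or late mThy16 (adjusted p = 0.05) as well. Both thyroid tissues exceeded both lung tissues in 5 of 10 members, namely *Plin1*, *Plin4*, *Cidec*, *Cidea* and *Ucp1*, and in 26.2% of all genes tested. Lung exceeded thyroid tissue in no member, against 27.5% of genes tested. The remaining differences were 3.86 ± 1.22 for *Plin1* (adjusted p = 0.117), 2.60 ± 0.63 for *Plin4* (adjusted p = 0.0608), 1.27 ± 0.78 for *Cidec* and 1.57 ± 1.17 for *Fabp4*. Without thyroid tissue 2 that of *Plin4* was 3.20, with a lone thyroid library. For *Lpl* the difference was 0.07 ± 0.84, for *Pparg* 0.56 ± 0.99, for *Lep* 2.67 ± 1.57 and for *Adipoq* -0.87 ± 2.45 (adjusted p from 0.357 to 0.969 over these 4 genes, *Fabp4* and *Cidec*).

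A ratio of members within a library does not depend on the total amount of fat RNA in it, provided that both genes are read from fat alone. Whether they are was not tested. Per kilobase of the longest transcript, the ratio of *Ucp1* to *Cidec* reached 1.06 in thyroid tissue 1 and 1.67 in thyroid tissue 2, whereas it was 0.00639 and 0.00960 in the respective lung tissues. The ratio of *Cidea* to *Cidec* was 4.64 and 1.28 in thyroid tissue, against 0.159 and 0.148 in lung tissue. *Cidec*, *Fabp4* and *Lpl* were thus read in the lung tissues with little *Ucp1* beside them. The ratio of *Fabp4* to *Cidec* overlapped between the tissues, at 1.92 and 12.3 in thyroid and 4.30 and 3.66 in lung. The ratio of *Adipoq* to *Cidec* was 0.00714 in thyroid tissue 1, 1.94 in thyroid tissue 2, and 0.935 and 0.371 in lung. The sources describe both a 3′ tag protocol and a full-length one, so division by length may not fit. The length cancels where a ratio of the same genes is compared between libraries, provided that all were made by 1 protocol, which was not tested.

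**Figure D3:**
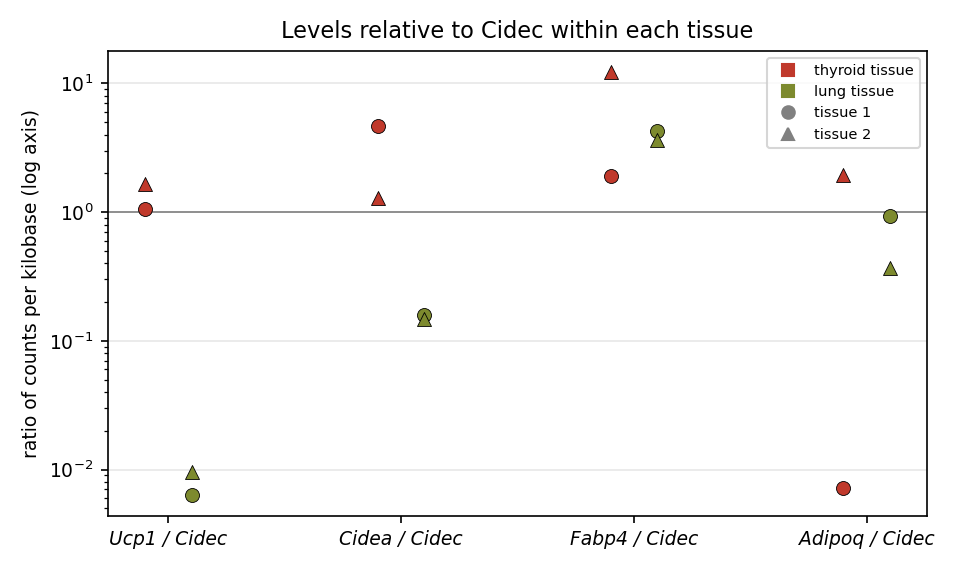
Ratios of *Ucp1*, *Cidea*, *Fabp4* and *Adipoq* to *Cidec*, per kilobase of transcript on a log axis, in the 2 thyroid and 2 lung tissues. The *Ucp1* and *Cidea* ratios are higher in both thyroid tissues than in both lung tissues, and the *Adipoq* ratio of thyroid tissue 1 (0.00714) is the lowest of the 4.

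Within the lung, all 10 members were lower in lung tissue 2 than in lung tissue 1, as were 48.9% of all genes tested. The members summed to 7769 normalized counts in lung tissue 1 and to 3358 in lung tissue 2. Between the thyroid tissues, 5 members were lower and 5 higher in tissue 2. Ordered per kilobase, the highest members of thyroid tissue 1 were *Cidea* (1641), *Fabp4* (678) and *Lpl* (674), and those of thyroid tissue 2 were *Fabp4* (5618), *Lpl* (1206) and *Adipoq* (884). In lung tissue 1 they were *Fabp4* (1379), *Lpl* (1171) and *Cidec* (320.4), and in lung tissue 2 *Lpl* (629), *Fabp4* (314) and *Cidec* (85.8). *Fabp4* and *Lpl* were thus among the top 3 in all 4 tissues.

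The thyroid tissues differed most in *Adipoq*, which was 349.78-fold higher in tissue 2, and *Fabp4*, which was 8.29-fold higher. On the log2 scale *Adipoq* differed by 8.07, and 108 of the tested genes (0.73%) differed between the thyroid tissues by as much, in either direction. The other 8 members differed by 0.37 to 1.49 in size, and the median difference in size over all tested genes was 0.90. An 8-fold excess in tissue 2 was found in 2 of 10 members (20%), in 7 of 88 other fat genes (7.955%) and in 5.244% of all genes tested. An 8-fold excess in tissue 1 was found in no member, in 3 of 88 other fat genes (3.409%) and in 6.978% of all genes tested. Those 3 genes, also named after their values were seen, were *Klf15*, a transcription factor of adipocyte differentiation (3509 and 169 in thyroid tissues 1 and 2), *Hoxc8*, a positional marker of white fat (45.7 and 0), and *Fgf21*, which encodes a metabolic hormone (19.6 and 0). Fat genes with the gap in favor of tissue 2, named after their values were seen, were *Cfd*, which encodes the adipocyte protease adipsin (14.2 and 3661 in thyroid tissues 1 and 2), *Cox7a1*, a respiratory chain subunit of brown fat and muscle (2.18 and 550.4), *Retn*, which encodes the hormone resistin (8.71 and 192), *Bscl2*, which encodes the droplet biogenesis protein seipin (26.1 and 824), and *Rarres2*, which encodes the adipokine chemerin (0 and 295). The others of those 7 genes were *Cideb* (0 and 55.3) and *Apln* (7.62 and 131).

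The gap in *Adipoq* coincided with the sets of libraries, and that in *Fabp4* did not, since *Fabp4* was higher in thyroid tissue 1 than in lung tissue 2. *Adipoq* was at or under 12.6 in the 5 libraries of TFCOs and thyroid tissue 1 and at or above 41.1 in the other 3 libraries. It was the single member in which the lowest of these 3 libraries exceeded the highest of the 5 by over 3-fold, a pattern shown by 9 of 88 other fat genes (10.2%) and 5.59% of all genes tested. *Cfd*, *Cox7a1*, *Bscl2*, *Rarres2*, *Cideb* and *Apln* were among those 9 genes, and *Retn* was not, since lung tissue 2 was at 8.09. The set and the tissue cannot be told apart for *Adipoq* in TFCOs against lung.

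**Figure D4:**
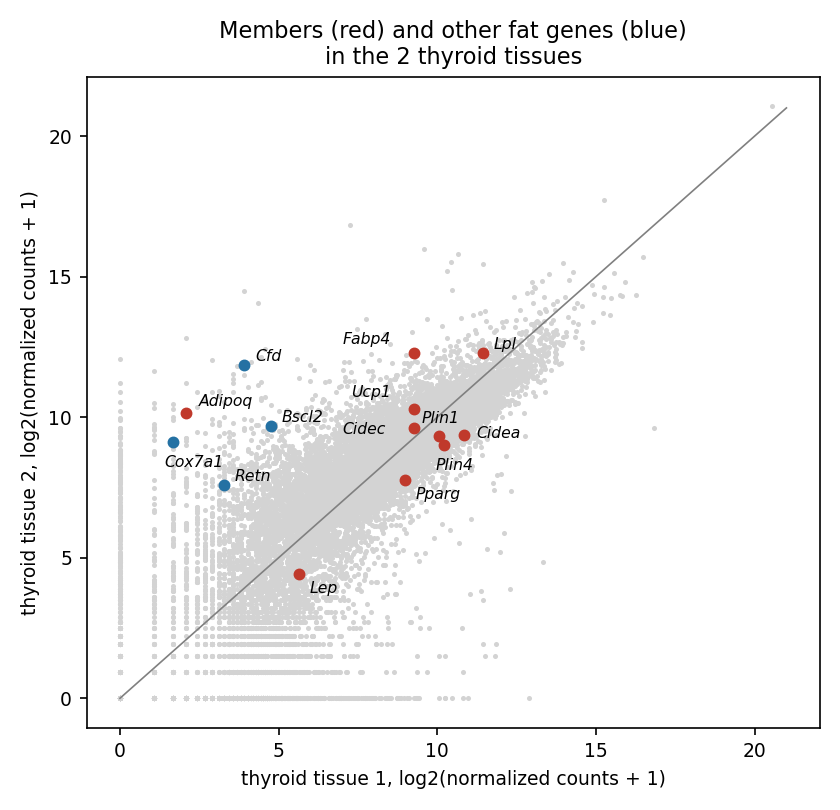
Thyroid tissue 2 against thyroid tissue 1 for all 14703 tested genes (grey), the 10 members (red) and 4 other fat genes chosen after their values were seen (blue), as log2(normalized counts + 1). Most members lie near the line of equality, whereas *Adipoq* lies 8.07 log2 units above it.

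TFCOs and lung differed in 4 members, *Lpl* (9.46 higher in lung, adjusted p = 0.00127), *Fabp4* (8.59, adjusted p = 0.00539), *Cidec* (6.09, adjusted p = 0.00432) and *Plin4* (2.46, adjusted p = 0.036). Of all genes tested, 13.5% were higher in lung and 9.83% were higher in TFCOs. In 6 members both lung tissues exceeded all TFCO libraries, as did 33.3% of all genes. The difference of *Ucp1* was -1.89 ± 0.86 (adjusted p = 0.134, and 0.0482 without thyroid tissue 2). A term for the set is estimated here from the difference between the 2 thyroid tissues alone, where set and sample cannot be told apart. With this term none of the 10 members was called. The differences of *Lpl*, *Cidec*, *Fabp4* and *Plin4* were then 8.62 ± 1.57, 5.72 ± 1.26, 5.55 ± 1.50 and 3.66 ± 0.75 (adjusted p = 0.08, 0.102, 0.146 and 0.0932). Voom weighting called *Lpl* and *Cidec* alone, and without lung tissue 1 only *Lpl* was (adjusted p = 0.0566 for *Fabp4*, 0.0617 for *Cidec* and 0.204 for *Plin4*). Without lung tissue 2 the adjusted p of *Plin4* was 0.177.

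Passage did not move any member past the threshold, in a fit that did not pair the passages of a line. By limma none of the 10 members and 0% of all genes tested differed between late and early TFCOs, while 1.13% of all genes had an unadjusted p under 0.05, and voom weighting called 0 as well. Among the members *Ucp1* had an unadjusted p of 0.0325, with a late minus early difference of -2.30 ± 0.90 (adjusted p = 1). It was lower at late passage in both lines, at 24 and 19 reads early and 4 reads each late in mThy14 and mThy16. The late minus early differences of the other members ranged from -2.54 for *Adipoq* to 1.23 for *Fabp4*.

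Over 7 lists of other genes of adipocyte biology, with 88 tested genes beside the members, 18 were higher and 1 was lower in thyroid tissue than in TFCOs, against 3.05% higher and 0.599% lower of all genes tested. Of 13 lipid droplet and lipolysis genes 2 rose and none fell (list median 1.91), *Lipe*, the hormone-sensitive lipase (234 to 342 in TFCOs, 1575 and 1022 in thyroid tissue, adjusted p = 0.0325), and *G0s2*, an inhibitor of triglyceride lipase (3.35 to 42.7 in TFCOs, 256 and 410.3 in thyroid tissue, adjusted p = 0.043). Of 18 genes of fatty acid uptake and triglyceride assembly 4 rose and none fell (median 1.38). *Pck1*, whose enzyme feeds glycerol synthesis in fat, was at 8.91 to 31.3 in TFCOs and at 2014 and 1394 in the thyroid tissues (6.22 ± 0.74, adjusted p = 0.00899). *Slc2a4*, the insulin-responsive glucose transporter of fat and muscle, was at 44.6 to 98.4 in TFCOs and 844 and 857 in thyroid tissue (adjusted p = 0.0142). *Acsl1*, which activates fatty acids, differed by 2.08 (adjusted p = 0.0217), and *Gpihbp1*, which anchors lipoprotein lipase to capillary endothelium, by 2.86 (adjusted p = 0.0468).

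Among 11 adipokines and their receptors 2 rose and none fell (median 2.96), the leptin receptor *Lepr* (0 to 2.08 in TFCOs, 30.5 and 63.6 in thyroid tissue, adjusted p = 0.0315) and *Cdh13*, a binding protein of adiponectin on vessels and muscle (adjusted p = 0.0342). Neither is a hormone, so no adipokine of the list was called. Of 12 adipogenic transcription factors 3 rose and 1 fell (median -0.13). *Ebf2*, a determinant of brown fat identity, was at 1.04 to 8.43 in TFCOs and at 152 and 134 in thyroid tissue (5.13 ± 0.87, adjusted p = 0.026). *Ebf1* (15.7 to 36.5 in TFCOs, 541 and 299.6 in thyroid, adjusted p = 0.0263) and the carbohydrate-responsive factor *Mlxipl* (3.34, adjusted p = 0.0488) also rose. *Cebpd*, an early factor of adipogenesis, fell by 2.91 from TFCO values of 2261 to 4708 to 366 and 382 in thyroid tissue (adjusted p = 0.00825).

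Of 21 brown fat and thermogenesis genes 2 rose in thyroid tissue over TFCOs and none fell (median 1.19). They were the potassium channel gene *Kcnk3* (20.1 to 28.1 in TFCOs, 553 and 408 in thyroid tissue, adjusted p = 0.015) and *Pdk4*, a kinase that spares glucose (20.8 to 103 in TFCOs, 382 and 1648 in thyroid tissue, adjusted p = 0.0491). Of 6 tested white depot genes only *Nnat* rose (3.75, adjusted p = 0.0171) and none fell. Of 7 preadipocyte genes 4 rose and none fell, *Pdgfra*, *Pi16*, *Cd34* and *Cd248*, by 4.06 to 6.13 (adjusted p from 0.00739 to 0.025). These 4 genes also mark fibroblasts, and *Cd34* marks endothelium.

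**Figure D5:**
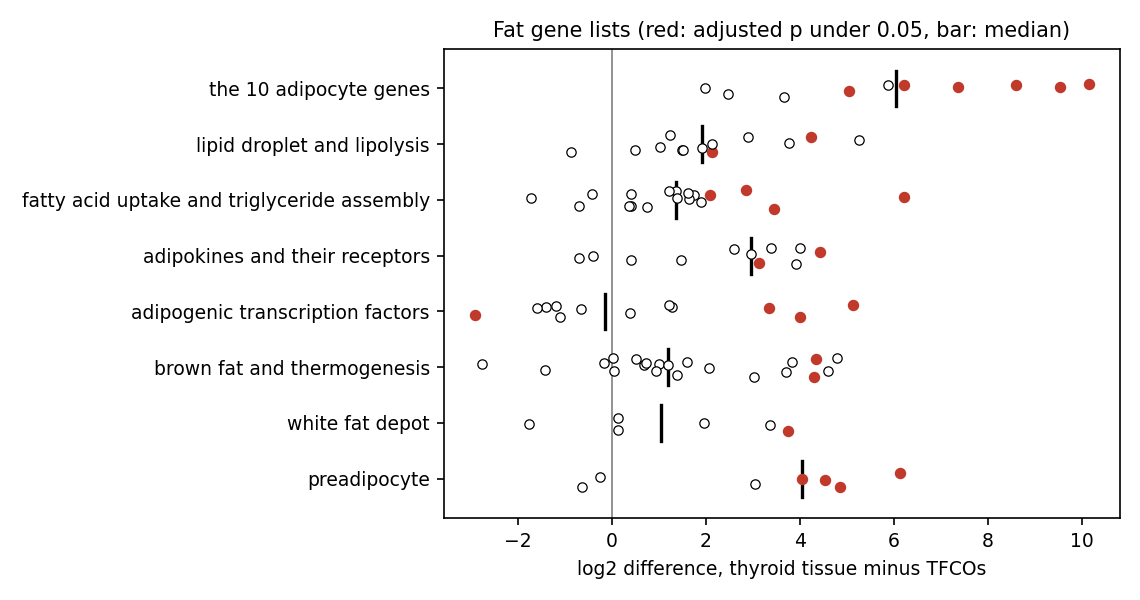
Log2 differences, thyroid tissue minus TFCOs, of each tested gene in the 10 members and 7 further fat gene lists, with the list median as a bar and genes past an adjusted p of 0.05 in red. The median is 6.05 for the members and lies between -0.13 and 4.06 for the other lists.

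Against lung, 8 of the 88 genes of the 7 lists were called higher in thyroid tissue and 7 were called lower. Of all genes tested 2.89% were higher in thyroid tissue and 3.16% were higher in lung. Among the 21 brown fat genes 3 were higher in thyroid tissue and none was lower (median 1.17). *Tbx15*, a developmental factor of brown fat and of muscle, was at 219 and 522 in the thyroid tissues and at 0 and 4.04 in the lung tissues (adjusted p = 0.0163). *Ppargc1a*, the coactivator of mitochondrial biogenesis, was at 1300 and 616 in thyroid tissue, 77.9 and 92.3 in lung, and 192 to 408 in TFCOs (adjusted p = 0.0184). The third was *Otop1*. Of the uptake genes 4 rose and 3 fell, with *Gpd1* (3.00, adjusted p = 0.0119) and *Pck1* (4.84, adjusted p = 0.0172) higher in thyroid tissue. Of the droplet genes *Hilpda* fell by 4.52 (adjusted p = 0.0242), of the adipokine list *Lepr* fell by 4.95 (adjusted p = 0.0184), of the white depot list *Tcf21* fell by 6.58 (adjusted p = 0.00656) and of the preadipocyte list *Pdgfra* fell by 2.85 (adjusted p = 0.0285), and no other tested gene of these 4 lists was called. Of the transcription factors *Mlxipl* alone was called, higher in thyroid tissue by 3.27 (adjusted p = 0.0393).

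Like the member sum, sums of muscle, fibroblast, endothelial, macrophage and parathyroid or C cell genes were lower in TFCOs than in thyroid tissue. Those of alveolar macrophage genes overlapped. From lung tissue 1 to lung tissue 2 the member sum fell from 7769 to 3358, and the macrophage and alveolar macrophage sums fell too. The muscle, fibroblast and endothelial sums rose. The summed counts of 7 skeletal muscle genes were 2531 to 3343 in TFCOs and 45847 and 148707 in primary thyroid tissue. They were 221 and 518 in lung tissue. *Ucp1* had the same order of the 3 kinds of sample, although its difference between lung and TFCOs was not called. Its lung and late TFCO values were near the floor. *Acta1* (1796 to 2442) made up most of each TFCO sum of the muscle genes. Between lung and TFCOs, 4 of the 7 muscle genes were called lower in lung, whereas *Ckm* was called higher in lung. The sums of 5 fibroblast genes were 70.8 to 235 in TFCOs, 29314 and 24536 in thyroid and 19465 and 35350 in lung, with *Lum* at 0 in all 4 TFCO libraries. Those of 7 endothelial genes were 239 to 531 in TFCOs, 3850 and 8004 in thyroid and 29472 and 51353 in lung, and those of 6 macrophage genes were 30.9 to 60.4, 1195 and 2920, and 6835 and 4096. For 4 alveolar macrophage genes the sums were 107 to 1102, 563 and 789, and 3155 and 1289. Most of each TFCO sum was the keratin gene *Krt79* (97.0 to 1013). *Marco* was at 0 to 10.4 in TFCOs against 1210 and 190 in lung tissue, and *Fabp1* at 0.990 to 7.29 against 228 and 154. Genes of the parathyroid and C cells summed to 23.8 to 115 in TFCOs and to 48097 and 92416 in the thyroid tissues. Muscle, fibroblast and endothelial lists had 5 of 7, 5 of 5 and 6 of 7 genes that were called higher in primary thyroid tissue over TFCOs. Macrophage and alveolar macrophage lists had 3 of 6 and 0 of 4, and the share over all genes tested was 3.05%. The part of these cells in *Lpl*, *Fabp4*, *Pparg* and the other members was not tested. The labels held against sums of defining genes, since 6 follicular genes summed to 16448 or more in every TFCO and thyroid library and to at most 284 in lung. The sums of 4 lung epithelial genes were 500427 or more in lung and at most 20284 elsewhere. Nearly all of the sum outside lung was *Ager*, at 2958 to 20265 in TFCOs and thyroid tissue and at 57060 and 23371 in lung tissue.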

How the data were processed

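RNA of 8 mouse libraries (4 TFCO, 2 thyroid and 2 lung) was sequenced, and samples were grouped by their titles. The authors deposited 1 table of normalized counts, treated here as a signal, made from read counts and 1 size factor each. The methods name DESeq2 and a stranded mRNA kit, the labels describe a 3′ tag protocol, and the submitters' processing notes name BWA 0.6.2-r126 with the builds mm10 and hg38, with no role given. Values above 0 were whole multiples of 1 step per library (100% within 0.02 read).

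limma 3.58.1 (R 4.3.3) was run on log2(normalized counts + 1), so differences of low genes are understated, with its trend option and p adjusted by Benjamini-Hochberg over the 14703 genes that reached 10 in 2 libraries or more. Passages of a line were averaged, except for late against early, which used all 8 libraries as 4 groups and did not pair passages by line. Two-sided permutation of 2 against 2 samples cannot go below p = 0.333, so none is given. Same line pairs early with late (r = 0.477). The fits were tested on simulated data. Members and gene lists were chosen with earlier results of these data known. Named beside the members were up to 4 genes per list with the smallest adjusted p in TFCO against thyroid tissue and 2 in thyroid against lung tissue, and the 5 genes most correlated with *Adipoq* and with *Ucp1*. Gene coordinates are from GENCODE M21 (GRCm38), where 15883 of 16119 symbols matched. Shared 50-base stretches with other genes made up 1.14% of *Lpl*, 0.172% of *Plin1* and 0% of the other members. Alternatives were the pseudocount, filter, scaling, trend, weighting, set term, pairing and leaving out each library.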

Additional observations from a re-analysis of the deposited data

Results flagged for a closer look

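The late minus early difference of *Plin4* went opposite ways in the TFCO lines, at -0.36 in mThy14 and 1.11 in mThy16 on the log2 scale. That of *Pparg* did so as well, at 0.37 in mThy14 and -0.69 in mThy16. Each line has 1 library per passage, and the difference between lines was not tested.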

How the results depend on the processing

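The 2-group counts rest on 2 samples each, and low counts in TFCOs limit the size of fold changes. The number of all genes called moved with the alternatives too. Under voom weighting, for instance, 188 genes were higher and 44 lower in thyroid tissue than in TFCOs, against 448 and 88. Leaving out a tissue leaves a lone library in its group, and most such fits changed the calls over all genes strongly. Whether the members changed more than all genes was not tested. Tests with count models were planned and not run, since the values were entered as a signal. For members called in TFCOs against thyroid tissue (6), voom weighting gave 3, and leaving out 1 library gave 3 to 7. For thyroid against lung tissue (2), a pseudocount of 0.5, no filter, no trend, only the 2 groups in the fit and a term for the set each gave 1, and leaving out 1 library gave 0 to 3. For members higher in lung than in TFCOs (4), voom weighting gave 2, the set term 0, and leaving out 1 library 1 to 6. *Ucp1* was in addition called lower in lung without thyroid tissue 2 and with only the 2 groups in the fit. For late against early TFCOs every alternative gave 0 members, as did a replicate block of the line. Tissue numbers did not pair the tissues (r = -0.073), and a replicate block of them left 2 members and moved the genes called in thyroid against lung tissue from 425 higher and 464 lower to 348 and 408.

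*Plin4*, *Ucp1* and *Lpl* kept their call against TFCOs in all 19 alternatives. Voom weighting lost *Fabp4* (adjusted p = 0.19), *Cidec* (0.0518) and *Cidea* (0.0522). The cause was not tested. Quantile normalization shifted the median of all genes to -0.17 in thyroid minus TFCO, 0.14 in thyroid minus lung and -0.32 in lung minus TFCO.

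Direction reversed in differences not called as reported. Of these, *Adipoq* in thyroid minus TFCO and in lung minus TFCO was called in some alternatives, most of them fits with a lone thyroid library. With the set term *Adipoq* became -0.36 in thyroid minus TFCO, 3.16 in thyroid minus lung and -3.52 in lung minus TFCO, *Pparg* became -0.047 in thyroid minus lung, and *Lep* became 0.54 in lung minus TFCO. *Lpl* became -0.041 in thyroid minus lung when scaled to the same total, and 0.20 in late minus early with a pseudocount of 0.5. *Lep* became 0.037 in lung minus TFCO with a pseudocount of 8, and *Cidea* 0.10 in late minus early under voom weighting. Leaving out 1 library gave -0.36 to 7.70 for *Adipoq* in thyroid minus TFCO. In thyroid minus lung it gave -4.91 to 3.16 for *Adipoq*, -0.047 to 1.17 for *Pparg* and -0.38 to 0.52 for *Lpl*, and in lung minus TFCO -3.04 to 1.66 for *Lep*. In late minus early it gave -1.50 to 0.16 for *Cidec*, -1.88 to 1.35 for *Cidea*, -1.83 to 1.50 for *Pparg*, -0.31 to 1.06 for *Plin4* and -2.55 to 2.25 for *Lpl*.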

Other observations

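Over the 8 libraries and among 11949 genes reaching 100 normalized counts, the log2 profile of *Adipoq* was most like those of *Snapc5* (Pearson r = 0.981), *Adi1* (0.973), *Bphl* (0.965), *Arl2* (0.964) and *A2ml1* (0.962). These genes share with it lower counts in TFCOs and thyroid tissue 1 than in thyroid tissue 2 and lung. *Snapc5*, for instance, was at 85.0 to 148 in TFCOs, 135 and 465 in primary thyroid tissue, and 446 and 262 in lung tissue. The profile of *Ucp1* was most like those of *Nppc* (0.978), the muscle genes *Neb* (0.977) and *Tnnc2* (0.969), *Pdhx* (0.970) and *Erbb4* (0.969). *Neb* was at 875 and 3184 in the thyroid tissues and at 7.54 and 10.8 in the lung tissues. The correlations describe 8 libraries of 4 groups, which share group and library set, and carry no p.

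Among the members, *Plin4* and *Cidea* were most alike (r = 0.982), followed by *Fabp4* and *Cidec* (0.971). *Ucp1* and *Adipoq* were little alike (0.271), and *Adipoq* and *Lep* least (0.025).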
